A study of Mus musculus with 13 samples.

Results

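The 38 genes described here encode chaperones, folding enzymes and stress regulators of the endoplasmic reticulum (ER), the cytosol and the mitochondrion. They were chosen by gene symbol, as genes of the unfolded protein response, of disulfide formation and of the heat shock response. The rule uses no measured value, but the list was chosen with earlier results of these data known. All 38 were found among the 24421 symbols of the count table, and all 38 were among the 13915 genes abundant enough to be tested. RNA was sequenced from liver endothelial cells of wild-type mice, in 6 libraries from germ-free mice (GF), which are kept without live microbes, and 7 libraries from conventionally raised mice (CONV-R), which carry a microbiota. The comparison asks how the transcriptome of these vessel-lining cells differs when microbes are absent. The wild-type genotype is common to both groups, and the labels name no treatment, transgene, sex, age or method of cell isolation. Whether a library stands for a single mouse is not in the labels either, so the p-values describe the spread among these libraries, part of which may be technical.

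Proteins that enter the secretory pathway fold in the ER with the help of the HSP70-type chaperone BiP, the HSP90-type chaperone GRP94, lectin chaperones and disulfide-forming enzymes. When unfolded proteins accumulate there, the sensors IRE1, PERK and ATF6 start the unfolded protein response: XBP1 and ATF6 raise chaperone and degradation genes, and PERK slows translation while favouring ATF4, the factor of the integrated stress response. Unfolded proteins in the cytosol act through the heat shock factor HSF1, which raises HSP70, HSP90 and small heat shock proteins. Liver sinusoidal endothelial cells take up large amounts of material from blood and secrete glycoproteins such as coagulation factor VIII, so protein folding is part of their normal work.

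GF libraries held 23407168 to 35478115 counts each and CONV-R libraries 7590320 to 32869515, and the 38 genes took 0.857 to 1.06% of the counts in GF libraries and 0.835 to 1.41% in CONV-R libraries. The 12 endothelial marker genes were detected in all 13 libraries and summed to 30598 to 32431 CPM (counts scaled to a common library size) in GF and 18246 to 30914 CPM in CONV-R, with 7 of 12 higher in GF. Other cell types left RNA in the libraries too. The 13 hepatocyte markers summed to 800 to 1289 CPM in GF and 1425 to 8476 CPM in CONV-R, with 12 of 13 lower in GF, 0 higher and 0 at 0 counts in any library. Immediate early genes, which rise fast after cell stress, summed to 625 to 812 CPM in GF and 829 to 2349 CPM in CONV-R, with 10 of 15 lower. Neutrophil and monocyte markers summed to 105 to 223 CPM in GF and 267 to 3062 CPM in CONV-R, with 10 of 10 lower, and B and plasma cell markers to 16.9 to 31.5 CPM in GF and 46.0 to 1394 CPM in CONV-R, with 6 of 7 lower. Kupffer cell markers summed to 2266 to 3697 CPM in GF and 2398 to 7555 CPM in CONV-R: 0 of 10 passed by edgeR's quasi-likelihood test, 7 were lower at an unadjusted p under 0.05, and DESeq2 and limma-voom called 3 and 0. T and NK cell markers summed to 48.0 to 178 CPM in GF and 48.5 to 235 CPM in CONV-R, where 0 of 9 passed, 2 were lower unadjusted, and the other tools called 0. Stellate cell markers were at 588 CPM in GF 11, 39.0 to 74.9 CPM in the other 5 GF libraries and 28.4 to 118.9 CPM in CONV-R. Of these, 2 of 9 were higher by edgeR, 0 by the other tools and 0 without GF 11. Cholangiocyte markers, at 135 to 358 CPM in GF and 48.8 to 254 CPM in CONV-R, had 4 higher and 1 lower of 7. The library names carry a code number, 6 for every GF library, 10 for CONV-R 1 to 4 and 9 for CONV-R 5 to 7. What this number stands for is not stated, and it cannot be told apart from the group. In bulk RNA, fewer cells of a type and less RNA per cell cannot be told apart.

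Many ER chaperone genes carry an ER stress response element (ERSE) near their start, the sequence through which ATF6 and the factor NF-Y are known to act in mammals. It is CCAAT, then 9 bases of any kind, then CCACG, and it was first described in promoters of this very family, so its presence is background for what follows. RefSeq promoter windows of build GRCm38.p6, from 250 bases before to 50 bases after each gene's start, were matched for 32 of the 38 genes, and Hyou1, Manf, Hspa8, Hsp90aa1, Hsp90ab1 and Cryab had no entry. Searched on both strands, an ERSE was in 7 of the 32 windows, or 21.9%, and in 0.137% of all 26994 genes with a window. The shorter ERSE-II, which is ATTGG and CCACG with 1 base between, was in the window of Herpud1 and in 0.0445% of all genes. The elements are shown because the genes that hold them are compared with the others further on. Each is printed 5′ to 3′ on the strand where it reads in this direction, with 10 flanking bases on each side, and the fixed bases in capitals. All lay 52 to 212 bases upstream of the gene's start.
Hspa5, chr2:34772015-34772053, plus strand: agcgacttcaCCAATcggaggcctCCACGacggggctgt
Hsp90b1, far element, chr10:86705628-86705666, minus strand: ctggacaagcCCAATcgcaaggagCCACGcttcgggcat
Hsp90b1, near element, chr10:86705523-86705561, plus strand: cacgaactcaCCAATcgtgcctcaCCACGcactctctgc
Dnajc3, chr14:118937817-118937855, plus strand: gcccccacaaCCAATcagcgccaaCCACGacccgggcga
Calr, chr8:84847065-84847103, plus strand: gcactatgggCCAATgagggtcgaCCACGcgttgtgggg
Canx, chr11:50325790-50325828, minus strand: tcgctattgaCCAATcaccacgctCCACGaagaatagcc
Creld2, chr15:88819510-88819548, minus strand: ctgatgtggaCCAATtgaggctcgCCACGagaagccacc
Pdia6, chr12:17266481-17266519, plus strand: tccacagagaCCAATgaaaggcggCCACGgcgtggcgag
Herpud1, chr8:94386367-94386397, plus strand: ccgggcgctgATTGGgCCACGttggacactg

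Hsp90b1 holds a pair of these elements in opposite directions, which do not overlap, and its whole window of 300 bases is shown with both in capitals.
Hsp90b1 promoter, chr10:86705395-86705694, minus strand: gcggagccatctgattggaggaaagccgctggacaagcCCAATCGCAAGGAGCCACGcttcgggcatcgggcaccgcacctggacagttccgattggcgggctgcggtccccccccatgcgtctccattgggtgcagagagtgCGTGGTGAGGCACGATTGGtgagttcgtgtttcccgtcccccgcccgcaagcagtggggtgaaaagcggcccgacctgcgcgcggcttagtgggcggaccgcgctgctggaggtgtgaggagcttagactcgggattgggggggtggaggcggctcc

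A heat shock element, 3 units of GAA or TTC in alternating direction with 2 bases between units, was in the windows of Hsph1, Chordc1, Hspd1 and Hspe1, or 12.5% of the 32, and in 0.663% of all genes. Hspd1 and Hspe1, which encode the barrel and the lid of the mitochondrial chaperonin, lie head to head on chromosome 1 with 112 bases of shared exon, so that their windows cover nearly the same DNA. The window of Hspe1 is shown with its pair of overlapping matches in capitals.
Hspe1 promoter, chr1:55087898-55088197, plus strand: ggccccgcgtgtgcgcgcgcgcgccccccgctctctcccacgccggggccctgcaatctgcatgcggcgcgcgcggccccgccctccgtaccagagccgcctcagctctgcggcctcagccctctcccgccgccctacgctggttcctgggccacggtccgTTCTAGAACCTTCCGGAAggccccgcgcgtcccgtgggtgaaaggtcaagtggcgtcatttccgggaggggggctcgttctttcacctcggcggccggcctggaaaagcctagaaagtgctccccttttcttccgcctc
The sequence TGACGTGG, a further site of ATF6 and XBP1, was in 0 of the 32 windows and 0.715% of all genes, and TGATGCAAT, a composite site of ATF4, was in 0 of the 32 and 0.222% of all genes. These searches match exact letters in one window, so a variant of a site is missed, and they do not show binding.

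Levels are given as CPM of a library scaled by the trimmed mean of M-values (TMM), and fold changes as log2 of GF over CONV-R with their standard error (SE). Of the 38 genes, 6 rose in GF, 6 fell and 26 did neither at an adjusted p threshold of 0.05 (edgeR's quasi-likelihood test, Benjamini-Hochberg adjustment over all tested genes). Qsox1, Trib3, Dnajb9, Herpud1, Bag3 and Dnajb1 were higher, and Sdf2l1, Hsp90b1, Chac1, Pdia4, Pdia6 and Atf4 were lower. The 15.8% of members called in each direction stood beside 11.4% of all tested genes called higher and 12.7% called lower, and the 12 members called in all beside 24.1% of all genes in either direction, so the count is near the background. The median log2 fold change of the 38 was -0.10 and that of all tested genes -0.0092, and 24 of the 38 values were negative. At an unadjusted p under 0.05, 6 members were higher and 12 lower. The share of all genes at this cutoff was not counted, here or further on, so such counts are not read as an excess. Hspa1a and Hspa1b are among the 12, and both rested on CONV-R 6. For 2 of the 38 genes, Qsox1 and Dnajb9, the lowest GF library exceeded the highest CONV-R library, beside 5.94% of all genes, and for 0 of the 38 the highest GF library was below the lowest CONV-R library, beside 4.32%.

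Leaving out 1 library at a time gave 3 to 7 members higher and 3 to 9 lower: 3 were higher without CONV-R 5, CONV-R 6, GF 9 or GF 11, and 3 were lower without GF 12 or GF 13. Over all genes, the fits without 1 library called fewest without GF 9, 1013 higher and 1208 lower, and most without CONV-R 3, 1765 and 1972. DESeq2 called 6 members higher and 10 lower, beside 1891 and 2210 of all 13915 genes. When libraries were scaled by their totals and not by TMM, 3 members were higher and 9 lower, beside 6.98% and 19.9% of all genes. Under that scaling the calls over all genes were split as 971 higher and 2773 lower, in place of 1593 and 1764, and the median of all genes was -0.11.

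**Figure D1:**
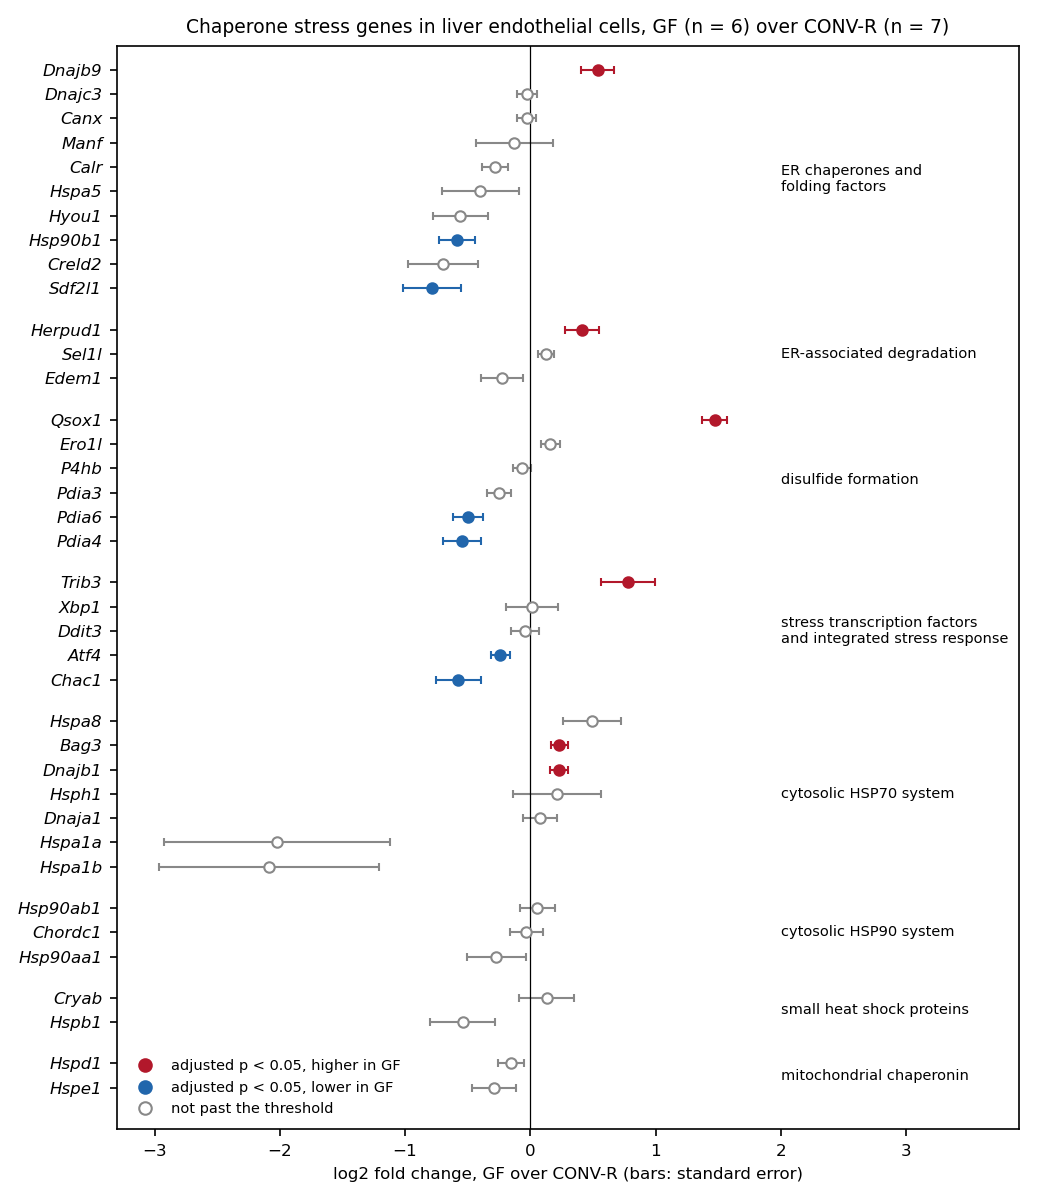
Log2 fold change, GF over CONV-R, of the 38 genes grouped by role, with bars for the standard error. Filled points passed an adjusted p of 0.05, 6 higher and 6 lower, and Qsox1 at 1.47 lies farthest to the right.

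Of the 10 ER chaperones and folding factors, 9 had a negative log2 fold change under TMM, under DESeq2's size factors and under library totals alike. The same 9 were negative by DESeq2, with no filter, with the stricter filter and against number 9. Some of the other alternatives gave fewer. Hspa5 and Manf were positive with limma-voom and without CONV-R 1 and 7. Dnajc3 and Canx were positive against number 10 and with the immediate early sum as a covariate, and Dnajc3 also without CONV-R 6 and 7. With the hepatocyte sum as a covariate, Hspa5, Hyou1, Manf and Creld2 were positive. Sdf2l1 and Hsp90b1 fell, Dnajb9 rose, and the median was -0.34, beside -0.0092 for all tested genes. The summed level of the 10 genes was 3342 to 4400 CPM in GF and 3584 to 5879 CPM in CONV-R. The count of lower genes, 2, was 5 by DESeq2 and 1 by limma-voom, and it was 5 without CONV-R 3, 4 without CONV-R 4 and 1 without CONV-R 6, GF 10, GF 12 or GF 13.

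Hsp90b1 (chr10:86690209-86705509, minus strand, GRCm38) encodes GRP94, the HSP90-type chaperone of the ER. It stood at 943 to 1248 CPM, median 1109, in GF and at 1195 to 2139 CPM, median 1598, in CONV-R. GF libraries were the lower ones, with 3 of 6 below every CONV-R library, and the groups overlapped through CONV-R 3 at 1195 CPM. The log2 fold change was -0.59 ± 0.14 (SE, adjusted p = 0.0115), and it passed in each of the 13 fits that left out 1 library (adjusted p 0.00454 to 0.0301). Part of its exons, 10.3%, overlaps a pseudogene on the other strand, and since the strand setting of the counting is not given in the sources used here, reads of the pair cannot be told apart.

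Sdf2l1 (chr16:17130138-17132383, minus strand) encodes an ER-resident partner of BiP's J-protein co-chaperones. Its level was 21.2 to 34.9 CPM, median 24.5, in GF and at 24.6 to 67.3 CPM, median 50.5, in CONV-R. Libraries 1, 5, 6 and 7 of CONV-R lay above every GF library and libraries 2, 3 and 4 within the GF range. Sdf2l1 had a log2 fold change of -0.79 ± 0.23 (adjusted p = 0.0262), and it missed the threshold without CONV-R 6, GF 10, GF 12 or GF 13 (adjusted p 0.0517 to 0.0582). Dnajb9 (chr12:44205559-44210326, minus strand) encodes ERdj4, a J-protein that helps BiP and the degradation machinery and holds back IRE1. It was at 68.7 to 83.7 CPM, median 72.8, in GF and at 35.5 to 66.2 CPM, median 53.02, in CONV-R. The groups did not overlap, with a log2 fold change of 0.54 ± 0.13 (adjusted p = 0.0120) that passed in all 13 fits without 1 library.

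BiP itself did not pass against all 7 CONV-R libraries. Hspa5, which encodes it, was at 479 to 810.2 CPM, median 607, in GF and at 375 to 1511 CPM, median 741, in CONV-R. Within CONV-R it was high in library 1 at 1393 CPM and library 7 at 1511 CPM, and the other 5 lay between 375 and 800.3 CPM, around the GF values. For Hspa5 the log2 fold change was -0.40 ± 0.31 (adjusted p = 0.352), and it was 0.11 without CONV-R 1 and 7. It was -0.13 (adjusted p = 0.816) against CONV-R 1 to 4 (number 10) and -0.70 (0.0438) against CONV-R 5 to 7 (number 9).

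The same CONV-R libraries, 1 and 7, were the highest of their group for Hyou1, the large HSP70-related exchange factor of BiP, for Manf, an ER-stress-induced secreted factor, and for Creld2, a folding factor with disulfide isomerase activity. Hyou1 averaged 112 ± 13.0 CPM in GF and 165 ± 62.9 CPM in CONV-R (SD, n = 6 and 7), a log2 fold change of -0.56 ± 0.22 (adjusted p = 0.0779) that passed without CONV-R 2, 3 or 4 (0.0302 to 0.0442). Creld2 averaged 24.3 ± 3.23 CPM in GF and 39.5 ± 20.03 CPM in CONV-R (-0.70 ± 0.28, adjusted p = 0.0834), and it passed without CONV-R 3 or 4 (0.0320 and 0.0456). Manf averaged 61.6 ± 11.8 CPM in GF and 67.2 ± 39.6 CPM in CONV-R, and its log2 fold change of -0.13 ± 0.31 (adjusted p = 0.797) had the other sign, 0.44, without CONV-R 1 and 7. None of these 3 genes separated the groups.

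The lectin chaperones hold newly made glycoproteins. Calr was at 800.2 to 1048 CPM in GF and 910.0 to 1357 CPM in CONV-R (log2 fold change -0.28 ± 0.10, adjusted p = 0.0618), with 3 of 6 GF libraries below every CONV-R library, and it passed without CONV-R 3 or GF 9 (0.0334 and 0.0485). Canx was at 501 to 641 CPM in GF and 528 to 638 CPM in CONV-R (-0.030 ± 0.074, adjusted p = 0.802). Dnajc3, the J-protein P58IPK, was at 308 to 372 CPM in GF and 281 to 379 CPM in CONV-R (-0.028 ± 0.078, adjusted p = 0.827). Both sets of values overlapped over most of their range.

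Seen by promoter, the 7 ER genes with an ERSE in the window had 0 genes higher and 2 lower, 7 of 7 negative log2 fold changes and a median of -0.40, with a range of -0.70 to -0.03. Over all tested genes, 11.4% were called higher and 12.7% lower, with a median of -0.0092. At an unadjusted p under 0.05, 0 of the 7 were higher, and DESeq2 and limma-voom called 0 of them higher. DESeq2 called Hsp90b1, Calr, Creld2 and Pdia6 lower, and limma-voom Hsp90b1 and Pdia6. The 10 other ER genes with a window had 3 higher and 2 lower, 5 negative values and a median of 0.03, with a range of -0.79 to 1.47. Herpud1, with its ERSE-II, is among these 10, and Hyou1 and Manf, which had no window, are in neither set. The 7 negative values did not hold under every alternative. With the hepatocyte covariate Hspa5 was at 0.93 and Creld2 at 0.52, and with the immediate early covariate Dnajc3 was at 0.12 and Canx at 0.072. Against CONV-R libraries 1 to 4, which carry number 10, Dnajc3 was at 0.076 and Canx at 0.044. Hspa5 was at 0.054 with limma-voom and 0.11 without CONV-R 1 and 7, and Dnajc3 at 0.025 without CONV-R 6 and 7. The split is a description of few genes and was not tested.

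Of the 3 genes of ER-associated degradation, which sends misfolded proteins to the proteasome, 1 rose. Herpud1 (chr8:94386438-94395377, plus strand), a scaffold of the HRD1 ubiquitin ligase, was at 133 to 167 CPM, median 148, in GF and at 81.4 to 164 CPM, median 106.8, in CONV-R. CONV-R 1 at 164 CPM lay inside the GF range, and every other CONV-R library lay below all GF libraries. Herpud1 had a log2 fold change of 0.41 ± 0.14 (adjusted p = 0.0405), and it passed in 2 of 13 fits without 1 library, those without CONV-R 1 (0.00284) or CONV-R 7 (0.0415), with adjusted p up to 0.0880 in the others. With library totals it missed the threshold as well.

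Sel1l, the adaptor of the same ligase, averaged 247 ± 12.1 CPM in GF and 227 ± 19.6 CPM in CONV-R (0.12 ± 0.064, adjusted p = 0.169). It passed without CONV-R 7 (0.0314), its highest CONV-R library at 269 CPM. Edem1, which delivers misfolded glycoproteins to degradation, was at 67.1 to 75.2 CPM in GF and 63.6 to 139 CPM in CONV-R (-0.23 ± 0.17, adjusted p = 0.328), with CONV-R 1, 6 and 7 above every GF library.

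The 6 genes of disulfide formation held the largest log2 fold change among the 12 called members. Qsox1 (chr1:155776029-155812889, minus strand) encodes quiescin sulfhydryl oxidase, a Golgi and secreted enzyme that makes disulfide bonds directly, without the relay through protein disulfide isomerase in the ER. It was at 301 to 434 CPM, median 376, in GF and at 115.8 to 158 CPM, median 132, in CONV-R. The lowest GF library lay far above the highest CONV-R library, and the means were 371 ± 52.0 CPM in GF and 134 ± 14.7 CPM in CONV-R. Qsox1 rose 2.77-fold, a log2 fold change of 1.47 ± 0.10 (adjusted p = 1.88e-06), and it lay between 1.37 and 1.59 under the other settings tried and between 1.424 and 1.52 without any 1 library.

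The isomerases Pdia6 and Pdia4 fell. Pdia6 (chr12:17266545-17284770, plus strand), also called P5, was at 222 to 299 CPM, median 253, in GF and at 284 to 497 CPM, median 349, in CONV-R. With 4 of 6 GF libraries below every CONV-R library, the overlap rested on CONV-R 3 at 284 CPM, and the log2 fold change was -0.50 ± 0.12 (adjusted p = 0.0104). Pdia4 (chr6:47796141-47813430, minus strand), also called ERp72, was at 113 to 147 CPM, median 122, in GF and at 132 to 246 CPM, median 205, in CONV-R. Here too 4 of 6 GF libraries lay below every CONV-R library, and the log2 fold change was -0.55 ± 0.15 (adjusted p = 0.0195). Both genes passed in all 13 fits without 1 library.

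Pdia3, or ERp57, which works with the lectin chaperones, was at 629 to 798 CPM in GF and 747 to 1062 CPM in CONV-R (-0.25 ± 0.10, adjusted p = 0.0753). P4hb, the classical protein disulfide isomerase, was at 411 to 489.9 CPM in GF and 434 to 555 CPM in CONV-R (-0.068 ± 0.072, adjusted p = 0.510). Ero1l, the oxidase that recharges these isomerases, averaged 56.3 ± 1.99 CPM in GF and 50.4 ± 6.21 CPM in CONV-R (0.16 ± 0.076, adjusted p = 0.133), and it passed without CONV-R 7 (0.0484). All 3 overlapped between the groups.

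**Figure D2:**
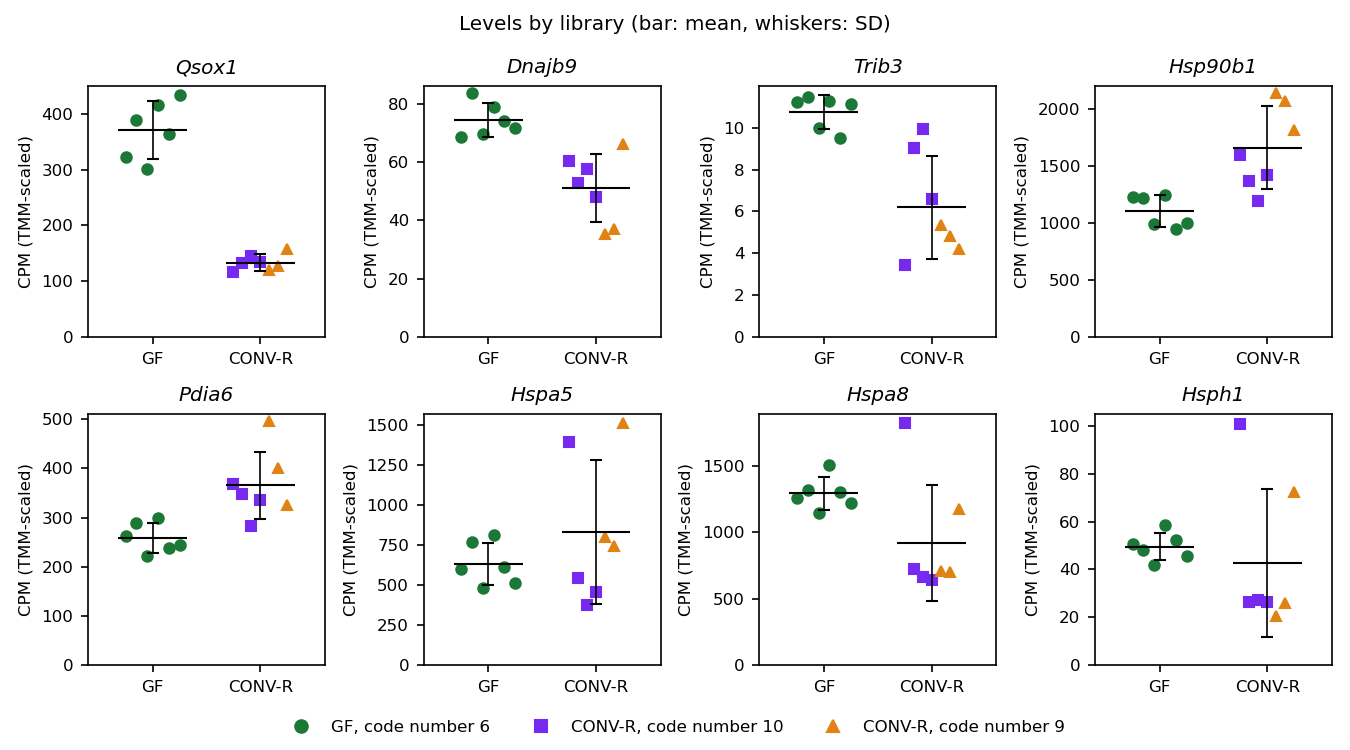
TMM-scaled CPM of 8 genes in each library, GF left of CONV-R, with the mean as a bar, the SD as whiskers and a symbol for each code number. The 6 GF libraries of Qsox1 sit between 301 and 434 CPM, above all CONV-R libraries, while Hspa5, Hspa8 and Hsph1 show CONV-R 1 and CONV-R 7 far above the other CONV-R libraries.

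Among the 5 stress transcription factors and targets of the integrated stress response, 1 rose and 2 fell. Atf4 (chr15:80255184-80257541, plus strand), whose protein is controlled mainly at translation, was at 105 to 128 CPM, median 114, in GF and at 112 to 149 CPM, median 138, in CONV-R. CONV-R 7 at 112 CPM and CONV-R 1 at 126 CPM lay inside the GF range, and the other CONV-R libraries lay above it. The log2 fold change was -0.24 ± 0.073 (adjusted p = 0.0306), which missed the threshold without GF 10, 11, 12 or 13 (0.0553 to 0.0723).

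Chac1 (chr2:119351229-119354381, plus strand), a glutathione-degrading enzyme and ATF4 target, was at 3.10 to 4.04 CPM, median 3.28, in GF and at 3.60 to 8.48 CPM, median 4.69, in CONV-R. It was highest in CONV-R 7 at 8.48 CPM, 4 of 6 GF libraries lay below every CONV-R library, and the log2 fold change was -0.57 ± 0.18 (adjusted p = 0.0351). Chac1 missed the threshold without CONV-R 4, GF 8, GF 9, GF 11, GF 12 or GF 13 (0.0526 to 0.0735). Trib3 (chr2:152337422-152344032, minus strand), a pseudokinase and also a target of ATF4, was at 9.50 to 11.5 CPM, median 11.2, in GF and at 3.45 to 9.95 CPM, median 5.37, in CONV-R. The highest CONV-R library was exceeded by 5 of 6 GF libraries, and CONV-R 1 and 7 were the lowest at 3.45 and 4.20 CPM. Trib3 had a log2 fold change of 0.78 ± 0.22 (adjusted p = 0.0204), and it passed in all 13 fits without 1 library. With the hepatocyte marker sum as a covariate the log2 fold change of Trib3 was 0.068 (adjusted p = 0.926). Chac1 and Trib3, both known ATF4 targets, thus differed in opposite directions.

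Ddit3, which encodes CHOP, was at 12.0 to 15.6 CPM in GF and 12.2 to 19.0 CPM in CONV-R (-0.042 ± 0.11, adjusted p = 0.816). Xbp1, whose mRNA is spliced by IRE1, was at 124 to 169.6 CPM in GF and 87.5 to 226 CPM in CONV-R (0.013 ± 0.21, adjusted p = 0.973), and its sign turned to -0.10 with library totals. Counts per gene do not show the spliced form.

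Of the 7 genes of the cytosolic HSP70 system, 2 rose. Bag3 (chr7:128523616-128546981, plus strand), a nucleotide exchange factor that hands HSP70 clients to autophagy, was at 47.8 to 61.4 CPM, median 50.7, in GF and at 39.5 to 49.3 CPM, median 44.5, in CONV-R. The highest CONV-R library was exceeded by 4 of 6 GF libraries, and the log2 fold change was 0.23 ± 0.069 (adjusted p = 0.0276). Bag3 missed the threshold without CONV-R 1, CONV-R 5, CONV-R 6, GF 8, GF 9 or GF 11 (0.05004 to 0.0861). Dnajb1 (chr8:83608193-83612653, plus strand), the HSP40 partner of HSP70, was at 38.1 to 45.2 CPM, median 42.6, in GF and at 31.98 to 43.4 CPM, median 35.3, in CONV-R. CONV-R 1 at 43.4 CPM lay inside the GF range and the other CONV-R libraries, at 36.2 CPM or lower, lay below it. The log2 fold change of Dnajb1 was 0.23 ± 0.071 (adjusted p = 0.0331), and it passed in 4 of 13 fits, those without CONV-R 1, CONV-R 3, GF 8 or GF 10 (0.00463 to 0.0461), with adjusted p up to 0.0853 in the others. Neither rise held without CONV-R 5, CONV-R 6, GF 9 or GF 11, when 0 of the 7 genes passed, or with library totals. At an unadjusted p under 0.05, 2 of the 7 were higher in each of the 4 fits without a library and 1 with library totals.

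Hspa8, which encodes the constitutive HSC70, was at 1148 to 1509.9 CPM, median 1281, in GF and at 637 to 1826 CPM, median 705, in CONV-R. CONV-R 1 at 1826 CPM lay above every GF library and CONV-R 7 at 1174 CPM within their range, and the other 5 CONV-R libraries, at 725 CPM or lower, lay below all of them. The log2 fold change of Hspa8 was 0.49 ± 0.23 (adjusted p = 0.133), it was 0.74 without CONV-R 1 (0.00268), and 0.91 without CONV-R 1 and 7 (1.36e-05). Hsph1, the HSP110-type exchange factor, had the same layout, with 42.0 to 58.7 CPM in GF, 100.7 CPM in CONV-R 1, 72.2 CPM in CONV-R 7 and 20.7 to 27.0 CPM in the other CONV-R libraries. Its log2 fold change was 0.22 ± 0.35 (adjusted p = 0.686) and 0.97 without CONV-R 1 and 7 (4.50e-05). CONV-R 1 and 7 hold the highest CONV-R values of both Hspa8 and Hsph1, so leaving them out was bound to raise the fold change. The smaller adjusted p-values of those fits are therefore not support for a rise. Dnaja1, an HSP40 of the cytosol, was at 165 to 185 CPM in GF and 135 to 241 CPM in CONV-R (0.076 ± 0.14, adjusted p = 0.721), with a sign that turned to -0.028 under library totals.

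The stress-inducible HSP70 genes Hspa1a and Hspa1b lie 9951 bases apart on chromosome 17, and their longest open reading frames are 99.5% identical, so reads may be split or lost between them and both values are uncertain. Of the exon bases of Hspa1a, 19.0% also overlap Gm20481, a protein-coding gene on the other strand. Hspa1a was at 5.30 to 8.98 CPM in GF and at 4.06 to 7.55 CPM in 6 CONV-R libraries, with 156 CPM in CONV-R 6. Hspa1b was at 6.59 to 13.9 CPM in GF and at 4.99 to 18.7 CPM in the same 6 CONV-R libraries, with 205 CPM in CONV-R 6. Their log2 fold changes, -2.02 ± 0.90 (adjusted p = 0.115) for Hspa1a and -2.09 ± 0.88 (adjusted p = 0.0983) for Hspa1b, rested on that library and were 0.11 and -0.18 without it. CONV-R 6 is also the library with the fewest counts, 7590320, and the second highest in immediate early genes, at 2021 CPM. Hspb1 was highest there too, at 31.1 CPM, against at most 22.7 CPM in the other CONV-R libraries and 17.8 CPM in GF. The Hsph1 of CONV-R 6 at 25.7 CPM and Dnajb1 at 35.8 CPM lay among the other CONV-R libraries.

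None of the 7 remaining genes passed against all CONV-R libraries: 0 of 3 of the HSP90 system, 0 of 2 small heat shock proteins and 0 of 2 chaperonin genes, with 0 at an unadjusted p under 0.05 by edgeR and 0 calls by DESeq2 or limma-voom. Hsp90ab1, the constitutive cytosolic HSP90, was at 1174 to 1529 CPM in GF and 967 to 1822 CPM in CONV-R (0.057 ± 0.14, adjusted p = 0.804), turning to -0.047 under library totals. Hsp90aa1, the inducible form, was at 103 to 134 CPM in GF and 84.3 to 244 CPM in CONV-R (-0.27 ± 0.23, adjusted p = 0.411). Chordc1, an HSP90 co-chaperone, was at 53.7 to 60.6 CPM in GF and 45.3 to 84.2 CPM in CONV-R (-0.031 ± 0.13, adjusted p = 0.885). All 3 had CONV-R 1 and 7 as their highest CONV-R libraries.

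Hspb1, or HSP27, was at 8.38 to 17.8 CPM in GF and 10.5 to 31.1 CPM in CONV-R (-0.54 ± 0.26, adjusted p = 0.139). It was at -0.12 (adjusted p = 0.756) against CONV-R 1 to 4, which carry number 10, and at -0.98 (0.00827) against CONV-R 5 to 7, which carry number 9. Cryab, or alpha-B crystallin, was at 3.18 to 8.84 CPM in GF and 3.45 to 5.77 CPM in CONV-R (0.13 ± 0.22, adjusted p = 0.692), and 17.0% of its exon bases overlap Hspb2 on the other strand. The GF range of Cryab spanned the whole CONV-R range. Hspd1, which encodes the mitochondrial chaperonin HSP60, was at 94.3 to 104 CPM in GF and 86.1 to 149.5 CPM in CONV-R (-0.15 ± 0.10, adjusted p = 0.288). Hspe1, which encodes its lid HSP10, was at 25.5 to 34.1 CPM in GF and 24.2 to 59.6 CPM in CONV-R (-0.29 ± 0.18, adjusted p = 0.233), with -0.23 (adjusted p = 0.506) against number 10 and -0.38 (0.0130) against number 9.

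The CONV-R libraries varied more than the GF libraries for 34 of the 38 genes by coefficient of variation, or 89.5%, beside 90.2% of all tested genes. CONV-R 1 and 7 were the highest of the 7 CONV-R libraries for 17 of the 38 genes, or 44.7%, beside 13.4% of all tested genes. The pair also had the highest hepatocyte marker sums, 8476 CPM in CONV-R 1 and 7281 CPM in CONV-R 7. Their endothelial marker sums, 18246 CPM in CONV-R 1 and 25356 CPM in CONV-R 7, were the lowest of the 13 libraries. CONV-R 7 had the highest immediate early sum, 2349 CPM, and CONV-R 1 the highest B and plasma cell sum, 1394 CPM. Without CONV-R 1 and 7, 9 members were higher in GF and 4 lower, beside 10.2% and 11.8% of all genes. Sel1l, Dnaja1, Hsph1 and Hspa8 passed in addition, Sdf2l1, Pdia4 and Bag3 no longer did, and the other 9 calls were kept. Each of the added genes has CONV-R 1 and 7 as its highest CONV-R libraries, so leaving out this pair raises its fold change by construction. Without CONV-R 6 and 7, which had the highest immediate early sums, 2 members were higher and 3 lower, beside 1076 and 1408 of all 14119 genes.

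**Figure D3:**
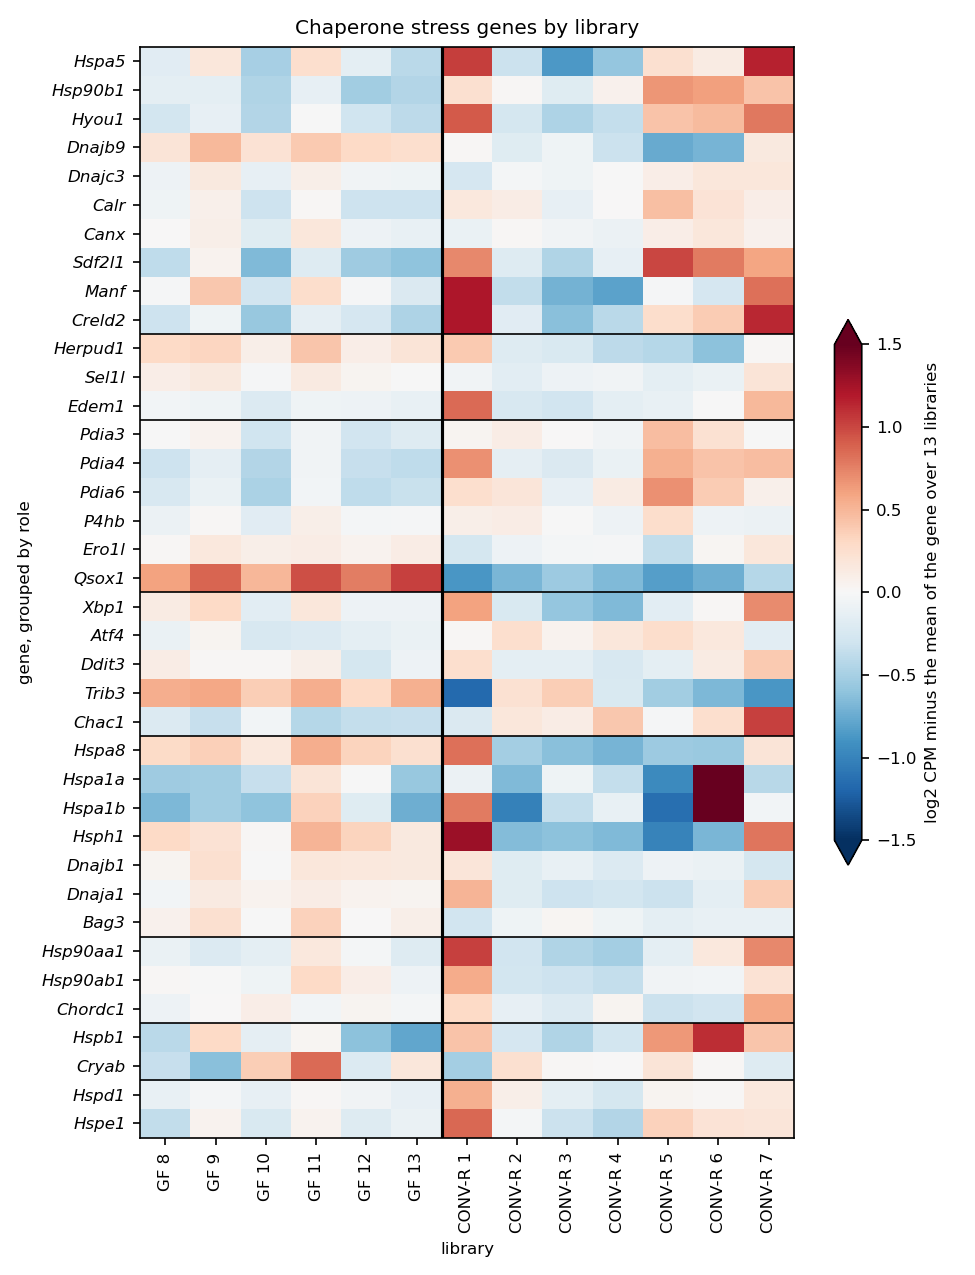
Log2 CPM of each gene minus its mean over the 13 libraries, with GF libraries left of CONV-R libraries, genes grouped by role and the colour scale ending at 1.5 in either direction. Qsox1 separates the groups in every library, CONV-R 1 and 7 are high for Hspa5, Manf, Creld2, Hsph1 and Hsp90aa1, and Hspa1a and Hspa1b stand out in CONV-R 6.

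The code numbers split the CONV-R group into 4 and 3 libraries. Against the 4 with number 10, 2 members were higher and 2 lower, beside 6.89% and 7.05% of all genes, and against the 3 with number 9, 6 were higher and 14 lower, beside 16.2% and 17.9%. Both comparisons share the GF libraries. Qsox1 and Dnajb9 rose and Pdia6 fell in both, with log2 fold changes of 1.49 and 1.44 for Qsox1, 0.44 and 0.67 for Dnajb9, and -0.37 and -0.67 for Pdia6 against numbers 10 and 9. Beside the genes called against all 7 libraries, Hspa5, Hyou1, Calr, Creld2, Pdia3, Hspa1a, Hspa1b, Hspb1 and Hspe1 were lower and Hspa8 higher against number 9, while Atf4 and Bag3 missed the threshold there. The calls of Hspa1a and Hspa1b against number 9 rested on CONV-R 6, at 156 and 205 CPM. In CONV-R 5 and 7, Hspa1a was at 4.06 and 5.91 CPM and Hspa1b at 4.99 and 10.7 CPM. Against numbers 10 and 9, Atf4 had -0.25 (adjusted p = 0.0371) and -0.23 (0.0770). Hsp90b1 was at -0.34 (adjusted p = 0.0847) against number 10 and -0.87 (0.000209) against number 9. Sdf2l1 was at -0.43 (0.220) and -1.18 (0.000271), and Pdia4 at -0.38 (0.154) and -0.76 (0.000145). The fold changes of Hsp90b1, Sdf2l1 and Pdia4 were thus farther from 0 against number 9. Chac1 had -0.42 and -0.78, Trib3 0.57 and 1.15, and Herpud1 0.32 and 0.54 in the same order. The summed ER chaperone level was 3342 to 4400 CPM in GF, against 3584 to 5489 CPM in the 4 libraries with number 10, with CONV-R 1 highest, and 5341 to 5879 CPM in the 3 with number 9. The difference between the sets of CONV-R libraries was not tested.

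**Figure D4:**
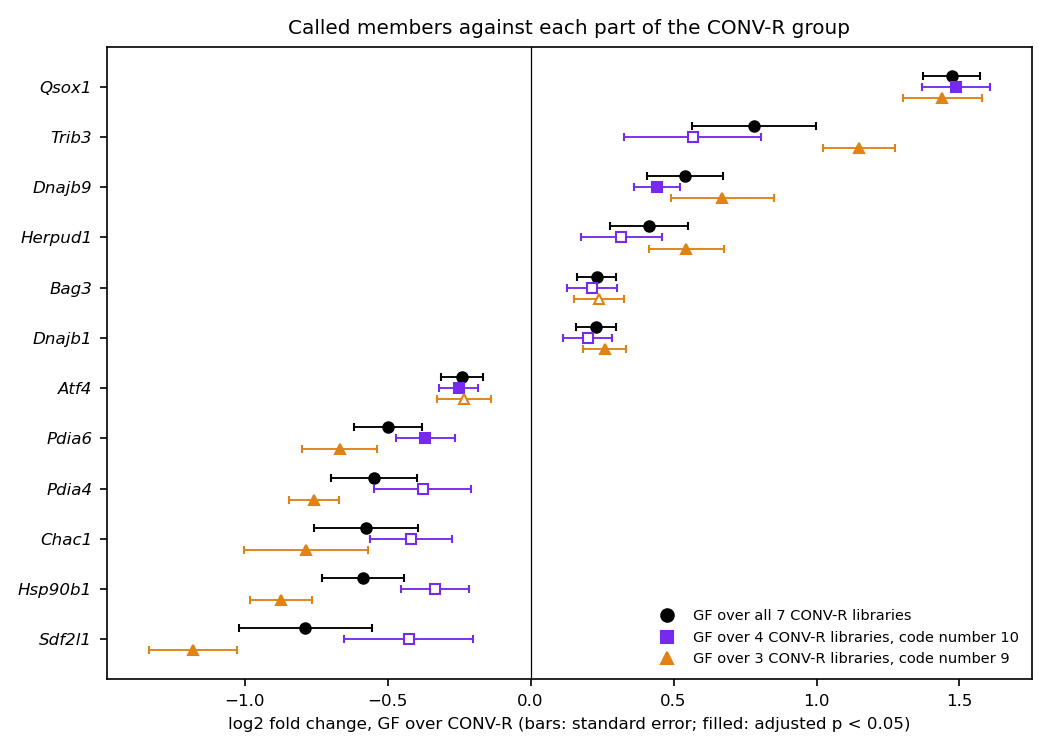
Log2 fold change, GF over CONV-R, of the 12 members past the threshold, against all 7 CONV-R libraries and against the 4 and 3 libraries with code numbers 10 and 9, with standard errors and filled symbols where adjusted p was under 0.05. Qsox1 stays near 1.47 in all 3 comparisons, whereas Hsp90b1, Sdf2l1, Pdia4 and Trib3 lie farther from 0 against number 9.

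The hepatocyte and immediate early sums moved with the group, and fits that held either as a covariate gave other counts. With the log2 hepatocyte sum in the model, 8 members were higher and 0 lower, beside 1.93% and 1.62% of all genes, and at an unadjusted p under 0.05 in that edgeR fit 15 were higher and 1 lower. Qsox1 at 1.44 and Herpud1 at 0.80 were kept, and Xbp1 at 0.88, Hsp90ab1 at 0.59, Dnaja1 at 0.59, Hsph1 at 1.58, Hspa8 at 1.417 and Manf at 1.25 were added. Each of the added genes has CONV-R 1 and 7 as its highest CONV-R libraries, and these have the highest hepatocyte sums. A covariate that is highest in this pair takes up part of those values. The added calls are therefore not support for a rise. Of the genes lower without the covariate, Hsp90b1 was at -0.38 (adjusted p = 0.414), Sdf2l1 at -0.19 (0.840), Pdia4 at -0.038 (0.944) and Pdia6 at -0.40 (0.307). Chac1 was at -0.46 (0.430) and Atf4 at -0.38 (0.0778). Of the genes higher without it, Trib3 was at 0.068 (0.926), Bag3 at 0.082 (0.732), Dnajb9 at 0.70 (0.0894) and Dnajb1 at 0.33 (0.124). The median of the 10 ER chaperones was 0.14, with 5 of 10 negative, so with this covariate that group had no common direction. With the log2 immediate early sum instead, 2 members were higher and 0 lower, beside 4.88% and 5.27% of all genes, and 5 and 4 at an unadjusted p under 0.05. The members higher were Qsox1 at 1.59 and Ero1l at 0.32. Neither marker sum overlapped between the groups, so the covariate and the group are closely bound in these fits.

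Compared per kilobase of annotated exon (GENCODE M21, GRCm38), which allows levels of different genes to be set side by side, Hsp90ab1 was the most abundant member, at 429 ± 43.9 CPM per kb in GF and 412 ± 102 in CONV-R (mean ± SD). Calr followed in GF at 313 ± 39.1 CPM per kb, against 379.9 ± 48.5 in CONV-R, and Hspa8 had 301 ± 28.5 in GF and 214 ± 102 in CONV-R. Hsp90b1 took rank 4 in GF with 274 ± 34.7 CPM per kb and rank 2 in CONV-R with 411 ± 89.8. Of the 38 genes, Qsox1 moved most in rank, at 14 in GF with 44.7 ± 6.28 CPM per kb and 27 in CONV-R with 16.1 ± 1.77.

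Around these genes, 153 other genes of the same pathways were listed, and all but Derl3 were tested. Of these 152, 28 were higher in GF and 6 lower, or 18.4% and 3.95%, beside the same 11.4% and 12.7% of all genes, and their median log2 fold change was 0.06. With library totals the split was 17 higher and 19 lower, with the hepatocyte covariate 6 and 1, and with DESeq2 34 and 13. The calls over all genes changed under these settings as well. Without GF 9, 16 were higher, and 10 and 11 were lower without CONV-R 3 and without CONV-R 4. The counts of each list below stand beside the same 11.4% and 12.7% of all genes. The genes named here are the 4 of each list with the smallest p among those past the threshold.

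Of 13 genes that sense ER stress or carry its signal, 5 were higher and 1 lower, with 3 higher without GF 9. Mbtps1, the protease that activates ATF6, was at 162 to 179.7 CPM in GF and 115 to 145 CPM in CONV-R without overlap (0.38 ± 0.059, adjusted p = 0.00103). Creb3l1, an ATF6-like factor, was at 21.5 to 25.1 CPM in GF and 10.6 to 19.2 CPM in CONV-R, also without overlap (0.65 ± 0.13, adjusted p = 0.00489). Eif2ak3, which encodes PERK, was at 70.9 to 92.4 CPM in GF and 56.1 to 77.7 CPM in CONV-R (0.31 ± 0.083, adjusted p = 0.0168). All 3 passed in each of the 13 fits without 1 library. Creb3l3, an ATF6-like factor made by hepatocytes, was at 1.502 to 2.91 CPM in GF and 1.76 to 19.5 CPM in CONV-R (-1.98 ± 0.54, adjusted p = 0.0186). It was highest in CONV-R 1, 5 and 7, the libraries with the highest hepatocyte sums, and its sign turned to 0.90 with the hepatocyte covariate.

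Among 21 further genes of the integrated stress response, 7 were higher and 1 lower, with 2 lower without CONV-R 1, CONV-R 3, CONV-R 4 or GF 11. Ddit4, an inhibitor of mTORC1 that several stresses induce, was at 104 to 217 CPM in GF and 17.7 to 49.3 CPM in CONV-R, without overlap (2.04 ± 0.22, adjusted p = 7.76e-05). Sesn2, a stress-induced regulator of mTORC1, was at 33.8 to 47.2 CPM in GF and 22.3 to 33.9 CPM in CONV-R (0.63 ± 0.12, adjusted p = 0.00271). Ppp1r15b, a subunit of the phosphatase that reverses the PERK signal, was at 158 to 193 CPM in GF and 138 to 156 CPM in CONV-R (0.27 ± 0.057, adjusted p = 0.00631). The groups of Ppp1r15b did not overlap either. Atf3, which is both a target of this response and an immediate early gene, was at 5.02 to 6.76 CPM in GF and 8.72 to 21.2 CPM in CONV-R (-1.25 ± 0.21, adjusted p = 0.00182). It was highest in CONV-R 6 and 7, the libraries with the highest immediate early sums.

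Of 22 other genes of ER-associated degradation, 6 were higher and 0 lower by edgeR, with 1 lower at an unadjusted p under 0.05 and 1 and 0 lower by DESeq2 and limma-voom. They included Man1b1, a mannosidase of glycoprotein quality control (0.19 ± 0.044, adjusted p = 0.00933), and the ubiquitin-conjugating enzyme Ube2g2 (0.25 ± 0.071, adjusted p = 0.0213). Fam8a1, a cofactor of HRD1, had 0.35 ± 0.10 (adjusted p = 0.0235), and Nploc4, a cofactor of the p97 segregase, had 0.16 ± 0.052 (adjusted p = 0.0388). These rises were small and depended on the scaling and the libraries: 0 were higher and 2 lower with library totals, with 3 and 5 at an unadjusted p under 0.05. Without CONV-R 5, CONV-R 6 or any 1 of the GF libraries, 1 to 3 were higher, and without CONV-R 2, 3 or 4 or GF 10, 1 was lower. Man1b1 passed in all 13 fits without 1 library, Ube2g2 missed the threshold without GF 9 or 13 (0.0627 and 0.0517), and Fam8a1 without CONV-R 6, GF 8, GF 9 or GF 12 (0.0535 to 0.0715). Nploc4 passed without CONV-R 2, CONV-R 3 or GF 8 and in no other such fit (adjusted p up to 0.120).

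Of 39 other ER folding genes, 5 were higher and 1 lower, and 9 were higher and 3 lower without CONV-R 3. With all libraries, 12.8% were higher and 2.56% lower, beside 11.4% and 12.7% of all tested genes. The count of higher genes is thus near the background. Without CONV-R 4, 3 were lower, and without CONV-R 1, 2 or 7, 2 were lower. Pdia5, a further isomerase, was at 42.8 to 51.6 CPM in GF and 22.1 to 36.5 CPM in CONV-R (0.67 ± 0.12, adjusted p = 0.00205). Serpinh1, the collagen chaperone HSP47, was at 216 to 316 CPM in GF and 161 to 206 CPM in CONV-R (0.43 ± 0.094, adjusted p = 0.00712). It was highest in GF 11, the library with the highest stellate cell sum, and the adjusted p without GF 11 was 0.0161. Hspa13, an HSP70-type chaperone of the ER, had a log2 fold change of 0.34 ± 0.069 (adjusted p = 0.00460). In these 3 genes the lowest GF library exceeded the highest CONV-R library. Fkbp2, a prolyl isomerase of the ER, was at 27.7 to 32.2 CPM in GF and 33.2 to 48.3 CPM in CONV-R (-0.49 ± 0.091, adjusted p = 0.00270), with every GF library below.

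Of 45 other cytosolic heat shock genes and co-chaperones, 5 were higher and 0 lower by edgeR, with 5 lower at an unadjusted p under 0.05 and 1 and 0 lower by DESeq2 and limma-voom. The 11.1% called higher stood beside 11.4% of all tested genes, so that count is near the background. Of all tested genes, 12.7% were called lower. Fkbp5, an HSP90 co-chaperone and well-known target of the glucocorticoid receptor, was at 192 to 381 CPM in GF and 64.5 to 107.4 CPM in CONV-R (1.87 ± 0.17, adjusted p = 2.52e-05). Dnaja4, a J-protein, was at 42.3 to 51.1 CPM in GF and 23.3 to 31.7 CPM in CONV-R (0.69 ± 0.078, adjusted p = 9.82e-05). Dnajb4, another J-protein, had 0.29 ± 0.061 (adjusted p = 0.00583), and Bag4, an HSP70 co-chaperone, had 0.27 ± 0.083 (adjusted p = 0.0289). Of these 4, Bag4 overlapped between the groups and missed the threshold without CONV-R 1, 2, 5 or 6 or GF 8, 9, 10, 12 or 13 (adjusted p up to 0.0763). Without CONV-R 6 or any 1 of GF 8, 9, 10, 12 and 13, 3 were higher, without CONV-R 4, 1 was lower, and with library totals 3 were higher and 6 lower.

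Of 12 other mitochondrial folding genes, 0 were higher, also at an unadjusted p under 0.05 and by DESeq2 and limma-voom, and 3 were lower. These were Grpel2, a cofactor of mitochondrial HSP70 (-0.31 ± 0.079, adjusted p = 0.0136), and the proteases Htra2 (-0.33 ± 0.085, adjusted p = 0.0141) and Afg3l2 (-0.16 ± 0.048, adjusted p = 0.0277). Afg3l2 missed the threshold without GF 11, 12 or 13 (0.0511 to 0.0597).

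**Figure D5:**
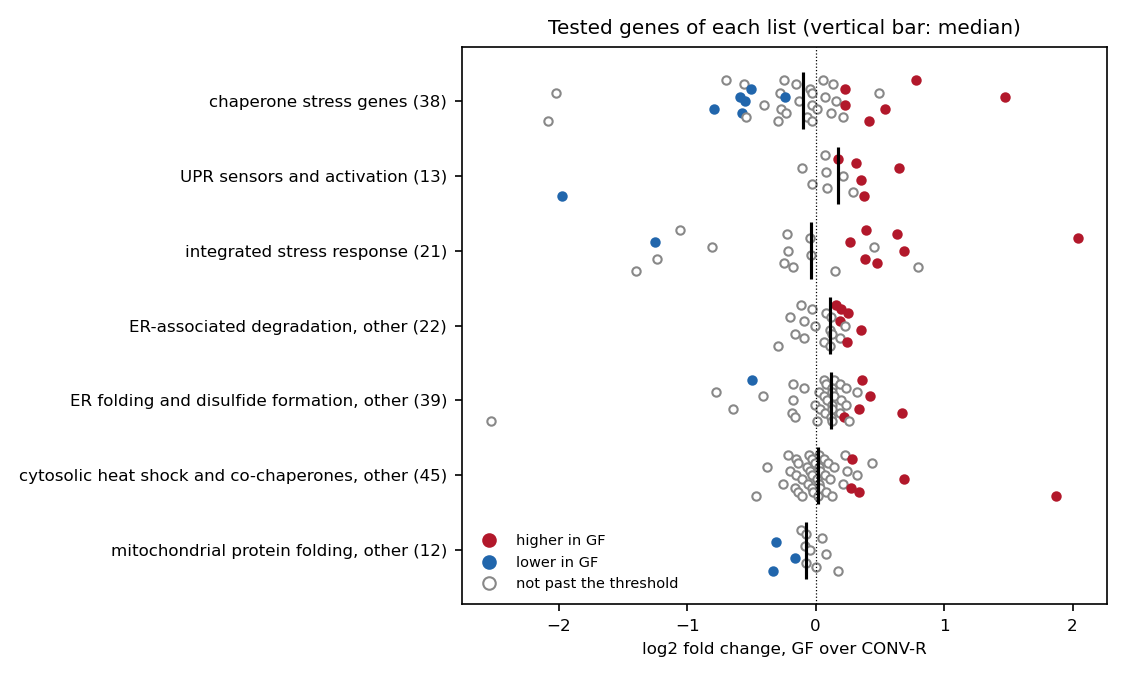
Log2 fold change, GF over CONV-R, of each tested gene in the 38 chaperone stress genes and in 6 lists of related genes, with a vertical bar at each list's median. The medians lie between -0.10 and 0.17, and Ddit4 at 2.04, Fkbp5 at 1.87 and Qsox1 at 1.47 lie farthest to the right.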

How the data were processed

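Bulk RNA-seq of liver endothelial cells was deposited by the authors as raw counts per gene for 6 GF and 7 CONV-R libraries. Per the labels' protocols, libraries were made with the TruSeq stranded mRNA kit and sequenced on an Illumina NovaSeq instrument. The tools used with build mm10 were STAR 2.7.5a, featureCounts 2.0.1, FastQC 0.11.9 and DESeq2 1.42.1, per the submitters' processing notes. The sources used here do not give the annotation, strand setting, treatment of multiply mapped reads or filters, and reads shared by close copies or overlapping genes may therefore be split or lost.

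Counts were tested as deposited in R 4.3.3 with edgeR 4.0.16. Genes passed filterByExpr with a minimum count of 10 and a minimum total of 15, libraries were scaled by TMM, and GF was set against CONV-R in a robust quasi-likelihood fit without covariates, with Benjamini-Hochberg adjustment over all 13915 tested genes and a threshold of 0.05. The standard error is the log2 fold change divided by the root of F. The biological coefficient of variation was 0.264. All 36 pairs of libraries within a group differed beyond sampling noise (chi-square over its degrees of freedom at least 13.4), and 0 columns belonged to other samples. The steps were checked on simulated counts. Alternatives were DESeq2 1.42.0, voom of limma 3.58.1 with quality weights, DESeq2's size factors, library totals, no filter, a minimum count of 50, CONV-R libraries of either code number, marker sums as covariates, 2 pairs of libraries left out, and each library left out. The members, the gene and marker lists and the alternatives were chosen with earlier results of these data known. The text names all 38 members and, in each other pathway list, the 4 genes past the threshold with the smallest p. Positions and exon lengths come from GENCODE M21 (GRCm38) and promoter windows from RefSeq (GRCm38.p6). Library totals of 7590320 to 35478115 counts set the precision of low genes.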

Additional observations from a re-analysis of the deposited data

Results flagged for a closer look

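Of 122 sets of libraries examined (each gene in each group), 5 held 1 library far from the rest by Dixon's criterion, and chance gives about 1 in 20. All 5 are CONV-R libraries. Hspa1a was at 156 CPM in CONV-R 6, against 4.06 to 7.55 CPM in the other CONV-R libraries. Hspa1b was at 205 CPM in CONV-R 6, against 4.99 to 18.7 CPM. Chac1 was at 8.48 CPM in CONV-R 7, against 3.60 to 5.53 CPM, and Sel1l was at 269 CPM in CONV-R 7, against 211 to 228 CPM. Dnajb1 was at 43.4 CPM in CONV-R 1, against 31.98 to 36.2 CPM.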

How the results depend on the processing

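All 12 called members kept their direction under each alternative, and Qsox1 passed the threshold under each. Over the 61 genes with values, leaving out 1 library kept the direction and the call in 699 results, lost a call in 68, gained one in 10 and turned the sign in 16, and the other alternatives did so in 545, 109, 33 and 45. The counts depended on the setting, and so did the calls over all genes given above. Members higher were 3 with library totals and 2 against the CONV-R libraries with number 10, with the immediate early covariate or without CONV-R 6 and 7. Members lower were 10 with DESeq2, 2 against number 10, 14 against number 9, 0 with either the hepatocyte or the immediate early covariate and 3 without CONV-R 6 and 7. Other listed genes higher were 17 with library totals, 18 against number 10, 6 with the hepatocyte and 13 with the immediate early covariate, and those lower were 13 with DESeq2, 19 with library totals, 2 against number 10, 23 against number 9, 1 with the hepatocyte and 2 with the immediate early covariate. Leaving out 1 library gave 3 to 7 members higher, 3 to 9 lower, 16 to 33 other listed genes higher and 5 to 11 lower. The causes were not tested.

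Log2 fold changes whose sign turned, none of them of a called member, were as follows. With DESeq2, this was Hspa1a 0.10. With limma-voom, these were Hspa5 0.054, Manf 0.39, Edem1 0.030, Ddit3 0.092, Hsp90aa1 0.087, Chordc1 0.10 and Cryab -0.084. With library totals, these were Xbp1 -0.10, Dnaja1 -0.028 and Hsp90ab1 -0.047. Under the stricter filter, this was Xbp1 -0.0086. Against the CONV-R libraries with number 10, these were Dnajc3 0.076, Canx 0.044, Ddit3 0.044 and Hspa1a 0.0074. Against those with number 9, these were Xbp1 -0.20 and Hsp90ab1 -0.0057. With the hepatocyte covariate, these were Hspa5 0.93, Hyou1 0.33, Manf 1.25, Creld2 0.52, Edem1 0.41, Ddit3 0.28, Hsp90aa1 0.74, Chordc1 0.32, Hspd1 0.25, Hspe1 0.41 and Creb3l3 0.90. With the immediate early covariate, these were Dnajc3 0.12, Canx 0.072, Ddit3 0.15, Hspa1a 1.09, Hspa1b 0.58 and Chordc1 0.11. Without CONV-R 1 and 7, these were Hspa5 0.11, Manf 0.44, Edem1 0.058, Ddit3 0.093, Hsp90aa1 0.14 and Chordc1 0.17. Without CONV-R 6 and 7, these were Dnajc3 0.025, Ddit3 0.049, Hspa1a 0.11 and Chordc1 0.034. Over the fits without 1 library, the values ranged as follows where the sign turned: Dnajc3 -0.081 to 5.5e-05, Manf -0.24 to 0.14, Xbp1 -0.079 to 0.16, Ddit3 -0.084 to 0.029, Hspa1a -2.22 to 0.11, Chordc1 -0.093 to 0.081 and Cryab -0.067 to 0.23.

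The covariates, code numbers and pairs of libraries were picked as alternatives with earlier results of these data known. No paired analysis was possible because GF and CONV-R libraries share no replicate number. The CONV-R libraries with number 9 have the fewest counts, which limits genes at a few CPM such as Chac1, Cryab and Trib3. The code number cannot be told apart from the group. The hepatocyte, immediate early, neutrophil and monocyte, and B and plasma cell sums do not overlap between the groups, whereas depth and the other marker sums do. The TMM factors do not overlap either, at 0.937 to 0.983 in GF and 1.01 to 1.08 in CONV-R.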
